A study of Mus musculus with 12 samples.

Results

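The ER translocation and N-glycosylation machinery is the set of proteins that brings new secretory and membrane proteins into the endoplasmic reticulum (ER), removes their signal peptides, attaches N-linked glycans and starts their folding. Its 34 members were chosen by gene symbol as components of the signal recognition particle (SRP), the translocon, signal peptidase, the oligosaccharyltransferase and the lectin chaperone system, leaving out ribosomal proteins and stress-response genes. All 34 were found among the 21960 genes listed for each tumor.

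SRP binds a signal sequence as it leaves the ribosome and docks at the SRP receptor, and the chain then enters the Sec61 channel, helped by the TRAP complex, Sec62, Sec63 and TRAM. Signal peptidase cuts the signal off, and the oligosaccharyltransferase moves a prebuilt glycan from dolichol onto asparagine. Calreticulin and calnexin hold the trimmed glycoprotein while Pdia3 forms its disulfide bonds. Mammary epithelium makes heavy use of this route when it secretes milk proteins.

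RNA from whole mammary tumors of female C57BL/6 mice that express the PyMT oncogene from the MMTV promoter was sequenced from 12 tumors, 3 in each of 4 groups. PyMT drives tumors in the mammary epithelium, and no tumor-free gland was among the samples. IgG1 and anti-PD-1 tumors came from mice given 20 mg/kg and later 10 mg/kg of an isotype control or a PD-1 blocking antibody, starting at a tumor diameter of 0.6 cm. DOX/IgG1 and DOX/anti-PD-1 tumors came from mice given 5 mg/kg doxorubicin, a DNA-damaging anthracycline, followed by 10 mg/kg of the same antibodies, starting at 1 cm. The labels give weekly treatment for 5 weeks in every group, whereas the treatment protocol describes a shorter antibody schedule for mice without doxorubicin. Doxorubicin therefore cannot be told apart from the larger starting tumor, the lower first antibody dose and the schedule. Each library came from 1 tumor, and the labels do not state that the 3 tumors of a group came from separate mice. Levels are given as TPM, which corrects for gene length and library size, and a log2 fold change is one group's mean log2(TPM + 1) minus that of the other. Read counts were not used here, and sequencing depth is unknown. The listed genes summed to 609418 to 725506 TPM per tumor.

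The members were abundant. Their median level over 12 tumors was 138 TPM, against 17.4 TPM for the 14735 genes at or above 1 TPM in 3 or more tumors. Calr (calreticulin), Pdia3, Canx (calnexin), Rpn1 and P4hb had the highest mean levels, and Sec61g the lowest at 11.5 TPM. All 34 members reached the minimum in every comparison. Within groups the SD of log2(TPM + 1) ranged from 0.17 for Ssr1 to 0.61 for Spcs1, with a median of 0.33 over the members and 0.40 over the 9393 tested genes with a mean of 10 TPM or more.

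The summed TPM of the members was 11201, 12005 and 11869 in IgG1 tumors, 9997, 11383 and 11247 in anti-PD-1 tumors, 8067, 7414 and 7252 in DOX/IgG1 tumors and 9192, 11449 and 5859 in DOX/anti-PD-1 tumors. The DOX/IgG1 tumors lay below all 6 tumors without doxorubicin, whereas the DOX/anti-PD-1 tumors ranged from the lowest sum of all 12 to one among the monotherapy tumors. In DOX/anti-PD-1 replicate 3, 30 of 34 members were below their mean over 12 tumors, and 9 members had their lowest value there. In DOX/anti-PD-1 replicate 2 only 9 members were below that mean, and 7 had their highest value. In DOX/anti-PD-1 replicate 1 there were 20 below it, and in the 3 DOX/IgG1 tumors 25, 29 and 27. These counts were taken without scaling the tumors, and the shares of all genes are not given here. The listed genes summed to 725506 TPM in DOX/anti-PD-1 replicate 2, the highest of the 12, and to 642245 in replicate 3.

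**Figure D1:**
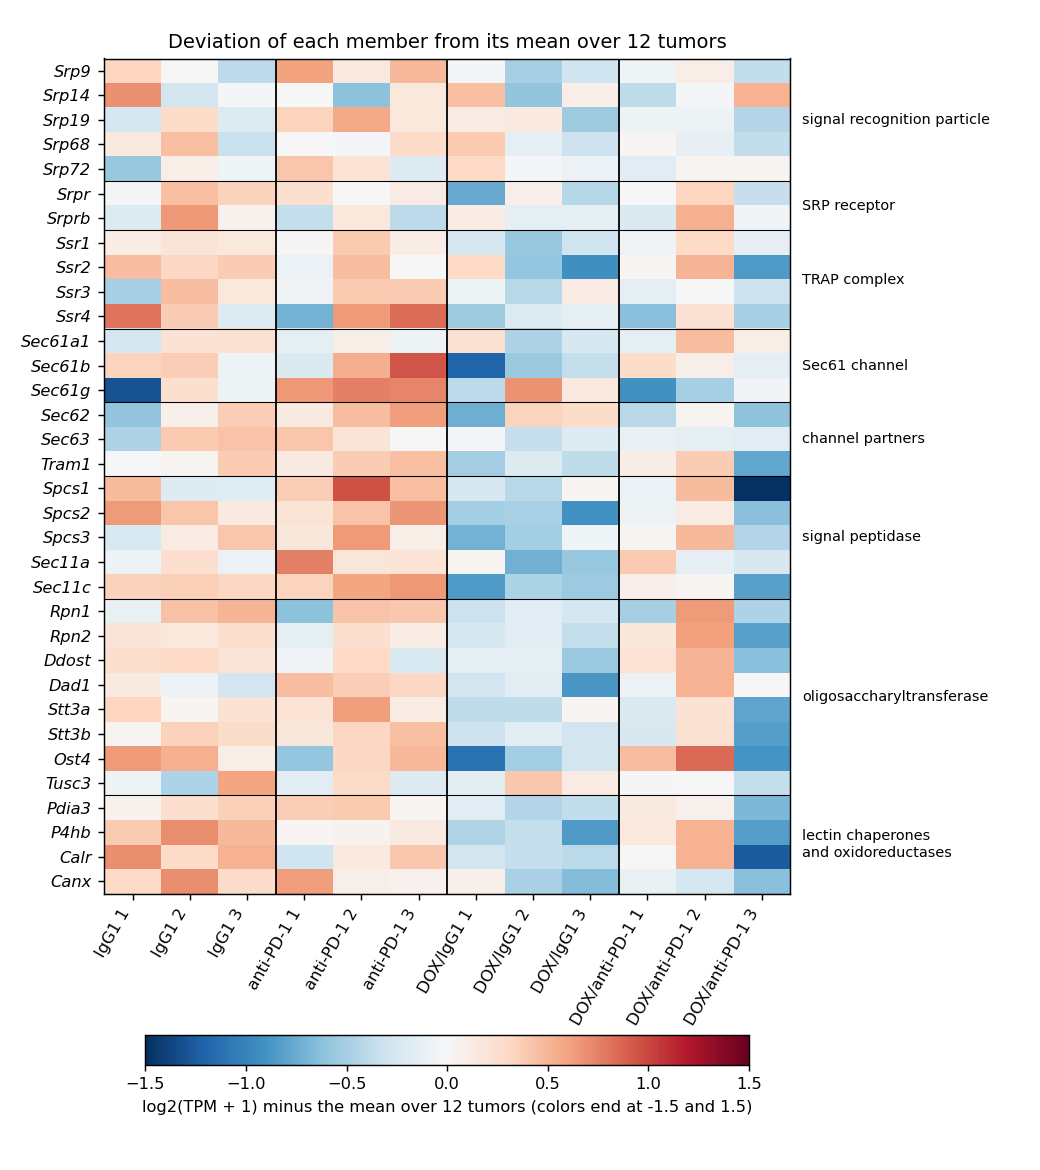
Color shows each member's log2(TPM + 1) minus its mean over 12 tumors, with members in lines ordered by complex and tumors in columns by group. Most members were below their mean in the 3 DOX/IgG1 tumors (25, 29 and 27 of 34) and in DOX/anti-PD-1 replicates 1 and 3 (20 and 30 of 34), but not in DOX/anti-PD-1 replicate 2 (9 of 34). The tumors were not scaled, and the shares of all genes are not given here.

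Without PD-1 blockade, 30 of 34 members had a lower mean in DOX/IgG1 than in IgG1 tumors, as did 39.4% of all genes. For 5 of the 30 (Srp14, Srp19, Srp68, Srprb and Ssr3) leaving out 1 tumor could turn the direction. The median log2 fold change of the members was -0.47, and that of all 13874 genes tested was 0.12. Calls required adjusted p < 0.1 together with a log2 fold change beyond 1 in either direction. With limma, 0 members met both limits, as did 5 of all genes (0.036%). At an unadjusted p below 0.05, 14 members (41.2%) were lower and 0 higher, where 2.7% of all genes were lower and 5.03% higher. The values of all 3 DOX/IgG1 tumors were below those of all 3 IgG1 tumors for 15 members (44.1%), compared with 4.64% of all genes. The 14 became 6 without IgG1 replicate 2 (1.66% of all genes in the same fit), 8 without IgG1 replicate 3 (1.87%), and 7 without DOX/IgG1 replicate 2 (2.85%) or replicate 3 (2.28%), counts chosen for recomputation after seeing the data. They also became 7 without the mean-variance trend (2.56% of all genes), 9 with all 12 tumors in one fit (2.8%), 17 without IgG1 replicate 1 (3.27%) and 18 with median-of-ratios scaling (4.25%).

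With PD-1 blockade, 29 of 34 members had a lower mean when doxorubicin was given, as did 40% of all genes. For 7 of the 29 (Srpr, Ssr2, Rpn1, Rpn2, Tusc3, P4hb and Calr) leaving out 1 tumor could turn the direction. Their median log2 fold change was -0.33, against 0.11 over 13736 genes. No member passed both limits with limma (0 members), nor did any gene (0%). At an unadjusted p below 0.05, 5 members (14.7%) were lower and 0 higher, where 2.33% of all genes were lower and 6.3% higher. These 5 were Sec61g, Sec62, Sec11c, Srp19 and Spcs2. The groups did not overlap for 8 members (23.5%) with lower values after doxorubicin, as for 3.84% of all genes. The median log2 fold change was -0.49 without DOX/anti-PD-1 replicate 2. Without DOX/anti-PD-1 replicate 3 it was -0.17 and 2 members were lower at that p (1.99% of all genes in the same fit). Without anti-PD-1 replicate 2 (1.76%) or replicate 3 (1.38%) there were also 2, and without DOX/anti-PD-1 replicate 2 there were 9 (4.04%). The 5 became 10 with median-of-ratios scaling (4.19%), 3 without the mean-variance trend (2.12%) and 8 with all 12 tumors in one fit (2.19%).

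Over both antibodies, with 6 tumors per arm, 30 of 34 members and 36.7% of all genes were lower with doxorubicin. Among the 30, leaving out 1 tumor could turn the direction of Sec61a1 (log2 fold change from -0.11 to 0.07). The members' median log2 fold change was -0.38, against 0.12 over 14735 genes. With limma, 0 members and 3 of all genes (0.0204%) passed both limits. Sec11c had the lowest adjusted p of the members, 0.118. At an unadjusted p below 0.05, 13 members (38.2%) were lower and 0 higher, where 3.16% of all genes were lower and 8.82% higher. For 2 members, Sec11c and Spcs2 (5.88%), all 6 tumors with doxorubicin were below all 6 without it, as for 0.122% of all genes. The 13 became 7 without DOX/anti-PD-1 replicate 3 (2.39% of all genes in the same fit) and 21 without DOX/anti-PD-1 replicate 2 (4.21%). With median-of-ratios scaling they became 23 (6.11%). Scaling the tumors by the median of ratios moved the median over all genes by -0.11. Relative to the median of all genes, that of the members was -0.50 before and -0.51 after scaling. Through this shift 12.6% of all genes turned to lower, and with them the 4 members not lower in the deposited values, Srp14, Srp72, Srprb and Tusc3, whose log2 fold changes were at most 0.04. It also turned the direction to lower for Sec62 and Tusc3 without PD-1 blockade (9.24% of all genes) and for Ddost and Ost4 with it (10.8%). In bulk tumor RNA, fewer cells of a type and less RNA per cell cannot be told apart.

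**Figure D2:**
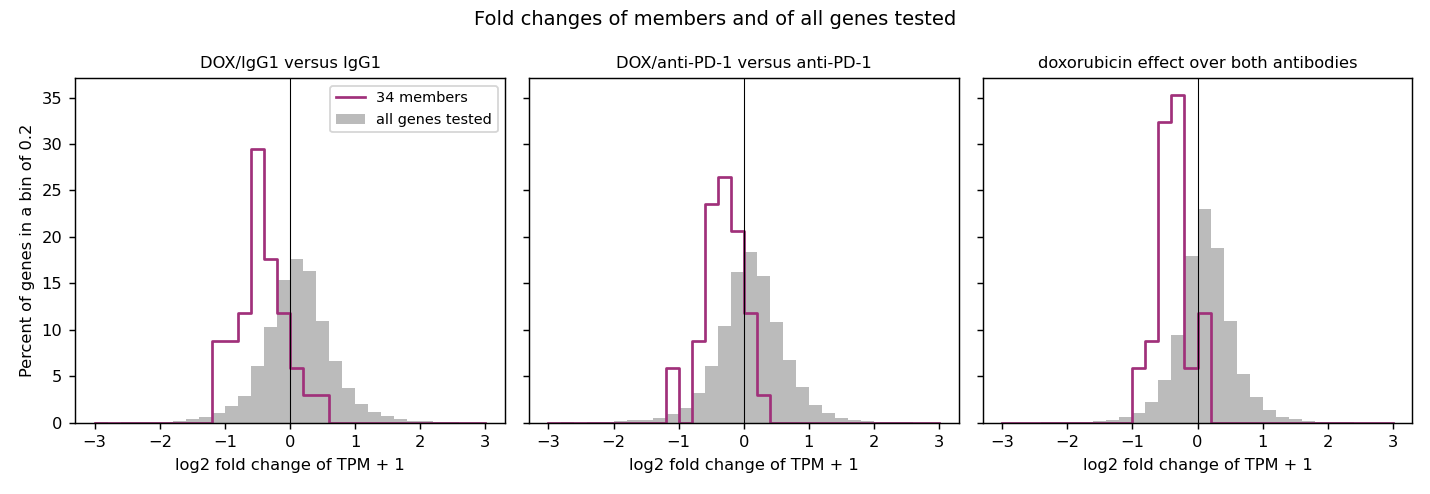
Percent of genes in each bin of log2 fold change (bin width 0.2), for all genes tested (gray bars) and the 34 members (line), in DOX/IgG1 versus IgG1, DOX/anti-PD-1 versus anti-PD-1 and the doxorubicin effect over both antibodies. The members' medians were -0.47, -0.33 and -0.38 and those of all genes 0.12, 0.11 and 0.12.

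**Figure D3:**
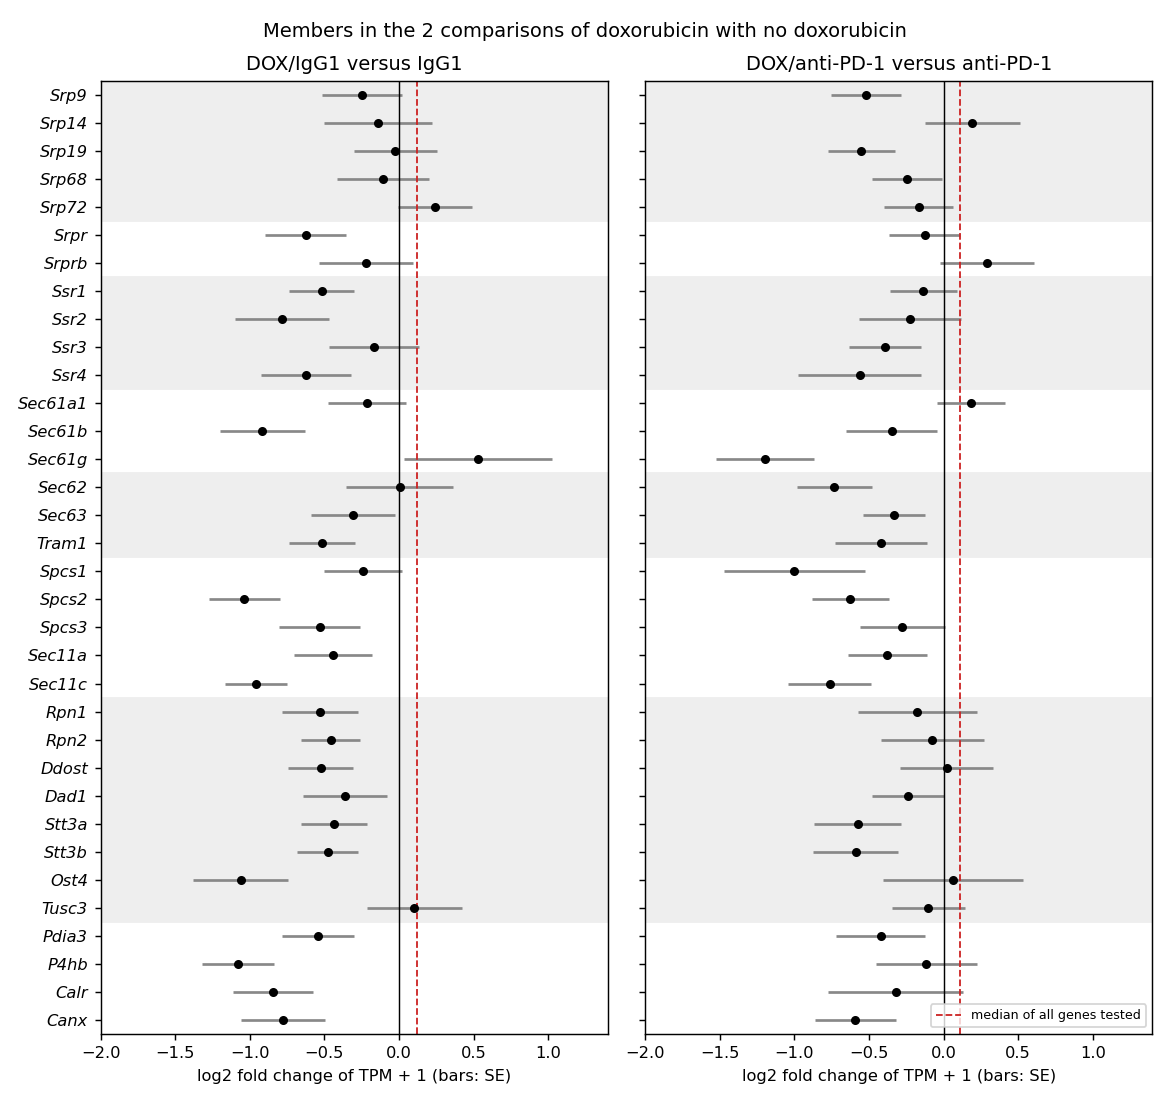
Points are log2 fold changes of each member with standard errors (3 tumors per group), shaded in blocks by complex, and the dashed line is the median of all genes tested. Of the 34 members, 30 lay below 0 on the left and 29 on the right, and 9 members differed in sign between the panels (Sec61g, Sec62, Srp72 and Tusc3 above 0 only on the left, Ddost, Ost4, Sec61a1, Srp14 and Srprb only on the right).

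Among the SRP proteins, 0 of 5 members had an unadjusted p below 0.05 in DOX/IgG1 versus IgG1. Of all genes, 2.7% were lower and 5.03% higher at that p. The median log2 fold change of the 5 members was -0.11. Srp72, a scaffold protein and the most abundant of them, was listed at 90.3, 143 and 128 TPM in IgG1, 179, 155 and 117 in anti-PD-1, 165, 132 and 126 in DOX/IgG1 and 120, 138 and 138 in DOX/anti-PD-1 tumors. Srp14, which forms the Alu-binding end of the particle with Srp9, had the lowest level at 53.1, 26.8 and 31.9, then 32.5, 20.8 and 36.3, then 45.0, 21.3 and 35.0, then 24.8, 31.9 and 47.1 TPM in the same order of groups. The groups overlapped for both genes. Srp9 stood at 82.6, 65.7 and 50.2 TPM in IgG1 and 101, 73.1 and 92.6 in anti-PD-1 tumors. In DOX/IgG1 tumors it stood at 64.8, 46.4 and 53.6 TPM and in DOX/anti-PD-1 tumors at 62.9, 70.9 and 50.9 TPM. All DOX/anti-PD-1 tumors were below the anti-PD-1 tumors. Srp19, which helps the particle's RNA take its shape, had 109, 128 and 96.6 TPM in anti-PD-1 and 81.8, 81.3 and 63.3 in DOX/anti-PD-1 tumors, which did not overlap. Its log2 fold change was -0.55 (standard error 0.22, unadjusted p = 0.0348 and adjusted p = 0.540 with limma). Its IgG1 values were 71.5, 104 and 74.5 TPM and in DOX/IgG1 tumors 93.4, 95.4 and 59.4 TPM, where the groups overlapped.

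The SRP receptor is made of the subunit Srpr and a membrane anchor, Srprb. Srpr had 246, 340 and 315 TPM in IgG1 and 147, 263 and 184 TPM in DOX/IgG1 tumors, and 293, 248 and 272 TPM in anti-PD-1 and 250, 312 and 195 in DOX/anti-PD-1 tumors. DOX/IgG1 replicate 2 overlapped the IgG1 tumors, and the log2 fold change was -0.63 (standard error 0.27, unadjusted p = 0.0480 and adjusted p = 0.639 with limma). Srprb was less abundant, at 16.7, 30.9 and 20.0 TPM in IgG1, 14.8, 21.6 and 14.5 in anti-PD-1, 20.9, 17.6 and 17.5 in DOX/IgG1 and 16.4, 28.5 and 18.8 in DOX/anti-PD-1 tumors. No pair of its groups was separated.

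The TRAP complex sits beside the channel and helps some signal sequences to open it. All 4 of its members were lower in DOX/IgG1 than in IgG1 tumors (39.4% of all genes), with a median log2 fold change of -0.57. Of these, 2 members, Ssr1 and Ssr2, were lower at an unadjusted p below 0.05 (2.7% of all genes). Ssr1 had 77.3, 82.1 and 80.4 TPM in IgG1, 72.6, 94.4 and 77.7 in anti-PD-1, 60.8, 48.2 and 58.2 in DOX/IgG1 and 69.0, 88.2 and 65.8 in DOX/anti-PD-1 tumors. Its 3 lowest values were those of DOX/IgG1. Ssr3, the most abundant subunit, had 410, 794 and 645 TPM in IgG1, 555, 760 and 749 in anti-PD-1, 546, 434 and 628 in DOX/IgG1 and 520, 576 and 464 in DOX/anti-PD-1 tumors. Ssr4, the least abundant, had 102, 75.2 and 50.1 TPM in IgG1, 34.9, 90.3 and 104 in anti-PD-1, 39.4, 49.6 and 52.5 in DOX/IgG1 and 37.0, 66.7 and 40.5 in DOX/anti-PD-1 tumors. Both overlapped between the groups with and without doxorubicin.

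Sec61 is a channel of 3 subunits. Sec61a1, which encodes the pore itself, had 114, 160 and 161 TPM in IgG1, 125, 146 and 131 in anti-PD-1, 161, 99.7 and 117 in DOX/IgG1 and 125, 190 and 147 in DOX/anti-PD-1 tumors, with overlap between all groups. Sec61b, a small tail-anchored subunit, had 110, 113 and 82.3 TPM in IgG1, 74.8, 128 and 168 in anti-PD-1, 37.2, 58.8 and 67.9 in DOX/IgG1 and 106, 92.9 and 78.9 in DOX/anti-PD-1 tumors. All 3 of its lowest values were in DOX/IgG1. The log2 fold change of Sec61b was -0.92 against IgG1 tumors (standard error 0.28, adjusted p = 0.509 with limma) and 0.78 for the antibody contrast under doxorubicin (standard error 0.28, adjusted p = 0.988). These comparisons share the DOX/IgG1 tumors. Sec61g, the other small subunit, had 3.61, 12.4 and 9.76 TPM in IgG1 and 16.9, 18.3 and 17.9 in anti-PD-1 tumors. With doxorubicin it had 7.68, 17.2 and 11.6 TPM in DOX/IgG1 and 5.07, 7.07 and 10.1 in DOX/anti-PD-1 tumors. The anti-PD-1 tumors thus stood above the IgG1 tumors (as for 3.64% of all genes) and above the DOX/anti-PD-1 tumors (as for 3.84%). Its log2 fold change was 1.10 for anti-PD-1 against IgG1 (standard error 0.41, adjusted p = 0.996 with limma) and -1.19 for DOX/anti-PD-1 against anti-PD-1 tumors (standard error 0.33, adjusted p = 0.479), which share the anti-PD-1 tumors. The first of these was 0.64 without IgG1 replicate 1 and 1.41 without IgG1 replicate 2.

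Of the channel partners, Sec62 and Sec63 serve proteins that enter after translation, and Tram1 touches signal sequences within the channel. Sec62 had 63.5, 101 and 124 TPM in IgG1, 105, 133 and 149 in anti-PD-1, 57.6, 121 and 116 in DOX/IgG1 and 71.9, 99.0 and 62.8 in DOX/anti-PD-1 tumors. The DOX/anti-PD-1 tumors were below the anti-PD-1 tumors, with a log2 fold change of -0.73 (standard error 0.25, unadjusted p = 0.0164 and adjusted p = 0.504 with limma), and IgG1 and DOX/IgG1 tumors overlapped. Tram1 had 195, 200 and 254 TPM in IgG1, 213, 252 and 266 in anti-PD-1, 134, 169 and 148 in DOX/IgG1 and 209, 252 and 112 in DOX/anti-PD-1 tumors. All DOX/IgG1 tumors lay below all IgG1 tumors, whereas DOX/anti-PD-1 replicates 1 and 2 lay near or among the anti-PD-1 tumors.

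Signal peptidase was lower in every one of its 5 members in both comparisons with doxorubicin (39.4% and 40% of all genes). The median log2 fold change was -0.53 without and -0.62 with PD-1 blockade. At an unadjusted p below 0.05, 2 members were lower in each comparison (2.7% and 2.33% of all genes). Sec11c, 1 of the 2 alternative catalytic subunits (ENSMUSG00000024516), had 197, 197 and 192 TPM in IgG1, 194, 233 and 244 in anti-PD-1, 85.6, 111 and 106 in DOX/IgG1 and 163, 157 and 87.3 in DOX/anti-PD-1 tumors. All 6 tumors with doxorubicin were below all 6 without it. The means were 195 ± 3.21 TPM (SD, n = 3) in IgG1 and 101 ± 13.3 TPM in DOX/IgG1 tumors, and the log2 fold change over both antibodies was -0.86 (standard error 0.17, adjusted p = 0.118 with limma). Spcs2 (ENSMUSG00000035227, chromosome 7, 99837569 to 99863462, GRCm38), an accessory subunit, had 254, 218 and 179 TPM in IgG1, 187, 218 and 258 in anti-PD-1, 114, 115 and 86.2 in DOX/IgG1 and 154, 177 and 105 in DOX/anti-PD-1 tumors. Again all 6 tumors with doxorubicin were below all 6 others, and its log2 fold change was -0.83 (standard error 0.18, adjusted p = 0.149 with limma). With no fold limit, limma called both genes in the doxorubicin effect after median-of-ratios scaling (adjusted p = 0.0635 for Sec11c and 0.0940 for Spcs2). Limma also called both without DOX/anti-PD-1 replicate 2 (adjusted p = 0.0897 for each) and without DOX/IgG1 replicate 1 (0.0588 and 0.0657). How many of all genes were called in these fits is not given here, so the calls cannot be set against a share.

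Sec11a, the other catalytic subunit, had 228, 287 and 226 TPM in IgG1, 408, 272 and 277 in anti-PD-1, 247, 146 and 163 in DOX/IgG1 and 317, 217 and 204 in DOX/anti-PD-1 tumors. Its groups overlapped in both comparisons. Spcs1 had 171, 107 and 108 TPM in IgG1, 158, 238 and 168 in anti-PD-1, 104, 91.5 and 125 in DOX/IgG1 and 116, 171 and 38.9 in DOX/anti-PD-1 tumors, the widest spread within groups of all members. Spcs3, the least abundant subunit, had 70.2, 89.7 and 110 TPM in IgG1, 92.5, 129 and 87.0 in anti-PD-1, 50.04, 57.6 and 78.5 in DOX/IgG1 and 83.1, 115 and 60.5 in DOX/anti-PD-1 tumors, with overlap in both comparisons with doxorubicin.

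The oligosaccharyltransferase was represented by its catalytic subunits Stt3a and Stt3b, the shared subunits Rpn1, Rpn2, Ddost, Dad1 and Ost4, and the oxidoreductase Tusc3. In DOX/IgG1 versus IgG1, 7 of 8 members were lower (39.4% of all genes) and 4 were so at an unadjusted p below 0.05 (2.7% of all genes), with a median log2 fold change of -0.47, and with PD-1 blockade 6 of 8 were lower (40% of all genes) and 0 reached that p (2.33% of all genes). Stt3b (ENSMUSG00000032437) had 200, 247 and 237 TPM in IgG1, 219, 242 and 267 in anti-PD-1, 157, 172 and 159 in DOX/IgG1 and 164, 228 and 110 in DOX/anti-PD-1 tumors. Only DOX/anti-PD-1 replicate 2 overlapped the tumors without doxorubicin, and the log2 fold change over both antibodies was -0.53 (standard error 0.17, adjusted p = 0.248 with limma). Stt3a had 292, 237 and 270 TPM in IgG1, 269, 360 and 250 in anti-PD-1, 178, 179 and 237 in DOX/IgG1 and 200, 270 and 134 in DOX/anti-PD-1 tumors. Rpn1, the most abundant subunit, had 633, 932 and 977 TPM in IgG1, 445, 918 and 908 in anti-PD-1, 548, 614 and 571 in DOX/IgG1 and 486, 1065 and 497 in DOX/anti-PD-1 tumors. The DOX/IgG1 tumors lay below the IgG1 tumors for Rpn1, and the groups with PD-1 blockade overlapped.

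Ost4, a very small subunit with the lowest level of the complex, had 43.8, 40.5 and 29.7 TPM in IgG1, 18.3, 34.6 and 39.4 in anti-PD-1, 12.2, 19.2 and 22.7 in DOX/IgG1 and 38.7, 50.6 and 14.4 in DOX/anti-PD-1 tumors. The DOX/IgG1 tumors were below all IgG1 tumors (log2 fold change -1.06, adjusted p = 0.503 with limma, standard error 0.32), while the groups with PD-1 blockade overlapped. Dad1 had 48.1, 40.9 and 35.5 TPM in IgG1, 60.7, 56.6 and 54.4 in anti-PD-1, 35.7, 38.7 and 23.4 in DOX/IgG1 and 40.9, 62.9 and 43.7 in DOX/anti-PD-1 tumors. Here the anti-PD-1 tumors were above the IgG1 tumors, and the DOX/anti-PD-1 above the DOX/IgG1 tumors. In the first comparison 2 of 34 members (5.88%) and 3.64% of all genes were so separated. In the second, 3 members (8.82%) and 4.27% of all genes were. Tusc3 had 43.2, 32.8 and 69.3 TPM in IgG1, 40.5, 56.0 and 39.7 in anti-PD-1, 40.7, 60.6 and 49.7 in DOX/IgG1 and 44.9, 45.5 and 35.4 in DOX/anti-PD-1 tumors, with overlap between all groups.

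The lectin chaperones and oxidoreductases held 4 of the 5 members with the highest mean levels. All 4 were lower in both comparisons with doxorubicin (39.4% and 40% of all genes). At an unadjusted p below 0.05, 3 were lower without PD-1 blockade (2.7% of all genes) and 0 with it (2.33%). Calr (ENSMUSG00000003814), the soluble lectin, had 3543, 2676 and 3151 TPM in IgG1, 1784, 2421 and 2897 in anti-PD-1, 1805, 1722 and 1657 in DOX/IgG1 and 2204, 3156 and 925 in DOX/anti-PD-1 tumors. The DOX/IgG1 tumors were below the IgG1 tumors (1728 ± 74.1 against 3123 ± 434 TPM, SD, n = 3), while the DOX/anti-PD-1 tumors held both the lowest value of the 12 and one above all anti-PD-1 tumors. Without DOX/anti-PD-1 replicate 3 the log2 fold change under PD-1 blockade turned from -0.32 to 0.18 for Calr and from -0.12 to 0.27 for P4hb. Canx (ENSMUSG00000020368), its membrane-bound relative, had 1078, 1424 and 1061 TPM in IgG1, 1348, 933 and 913 in anti-PD-1, 922, 625 and 558 in DOX/IgG1 and 810, 727 and 568 in DOX/anti-PD-1 tumors. In each comparison the tumors with doxorubicin were below those without, and the log2 fold change over both antibodies was -0.69 (standard error 0.19, adjusted p = 0.209 with limma). Limma called Canx with no fold limit without DOX/IgG1 replicate 1 (adjusted p = 0.0827), a fit whose share of all genes called is not given here. P4hb (ENSMUSG00000025130, chromosome 11, 120560298 to 120573253, GRCm38), a disulfide isomerase, had 797, 985 and 851 TPM in IgG1, 616, 627 and 662 in anti-PD-1, 444, 474 and 336 in DOX/IgG1 and 676, 869 and 341 in DOX/anti-PD-1 tumors. All values of anti-PD-1 and of DOX/IgG1 were below those of all IgG1 tumors, as for 6.24% and 4.64% of all genes, respectively. For anti-PD-1, P4hb was the 1 member of 34 (2.94%) so separated. The log2 fold change of P4hb in DOX/IgG1 against IgG1 was -1.08 (standard error 0.24, adjusted p = 0.460 with limma). Pdia3 ranged from 747 to 1558 TPM over the 12 tumors.

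**Figure D4:**
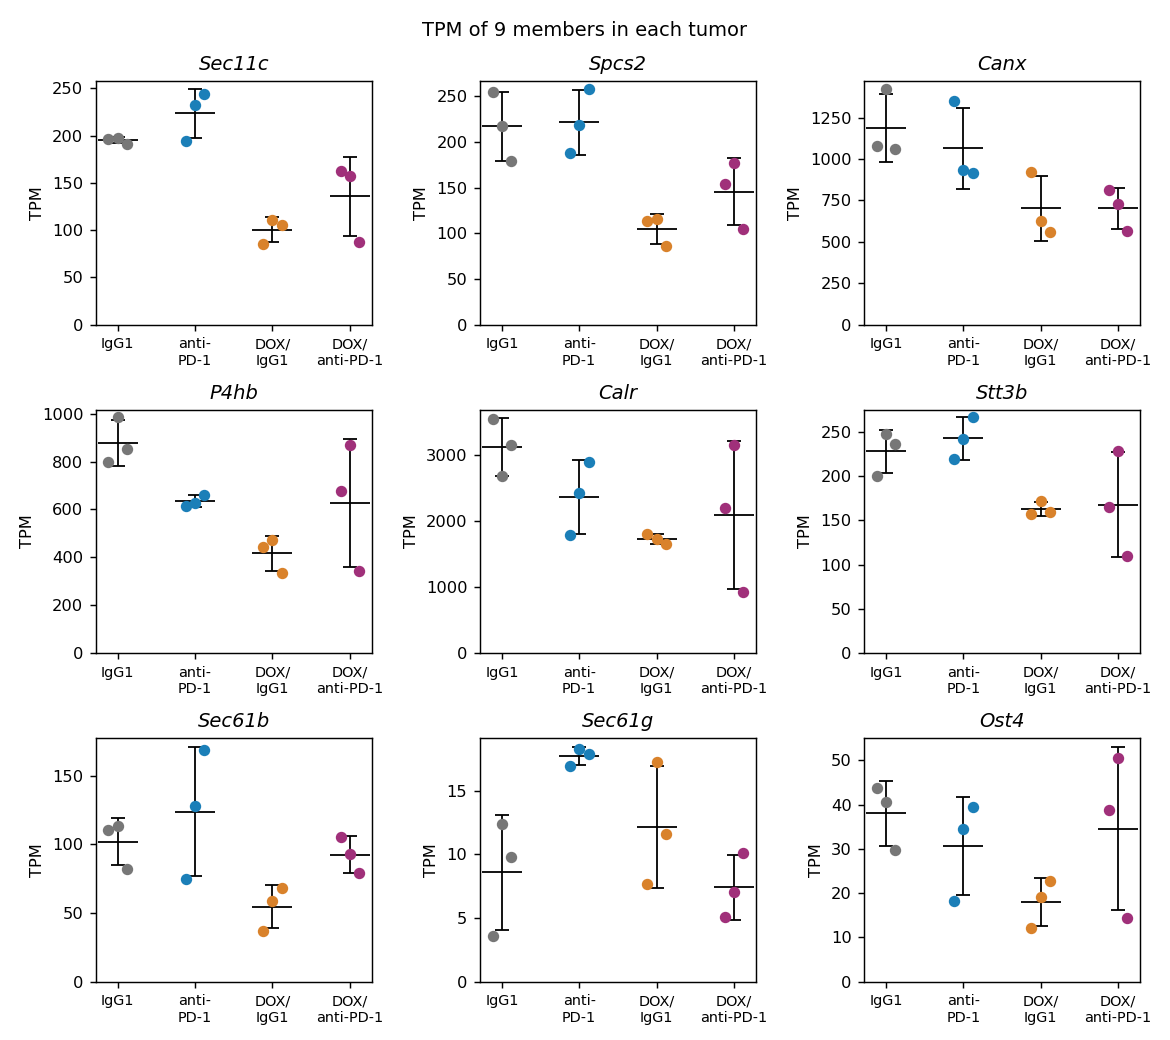
TPM of 9 members in each tumor (points), with the group mean (line) and SD (bars, n = 3). For Sec11c and Spcs2 all 6 tumors with doxorubicin were below all 6 without it, and for Calr DOX/anti-PD-1 tumors spread from 925 to 3156 TPM.

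Letters of 2 known promoter elements of ER stress genes were searched in the members. RefSeq promoter sequences (GRCm38.p6, from 250 bases before to 50 after the start) were matched for 26 of 34 members. Those without a sequence were Tusc3, Ssr2, Sec11c, Srp19, Srp68, Tram1, Sec61a1 and Spcs3. The ER stress element, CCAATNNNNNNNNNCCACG on either strand, was found in 2 of 26 members, Calr and Canx, and in 0.119% of all 32851 promoters. The unfolded protein response element, TGACGTGG on either strand, was found in 0 of 26 members and in 0.676% of all promoters. Among 15 genes of the unfolded protein response with a promoter sequence, 5 held the ER stress element, Creld2, Dnajc3, Hsp90b1, Hspa5 and Pdia6. A match is a description of the letters and not a measured binding site. The stretches around the element in Calr (chr8:84847055-84847113, minus strand, ending 143 bases before the start and read on the opposite strand), in Canx (chr11:50325780-50325838, minus strand, 126 bases before it) and, for comparison, in Hspa5 (chr2:34772005-34772063, plus strand, 46 bases before it) are printed along the gene with the element in capitals.
Calr: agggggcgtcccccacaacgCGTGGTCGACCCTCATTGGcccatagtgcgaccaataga
Canx: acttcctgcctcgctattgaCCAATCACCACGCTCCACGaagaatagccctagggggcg
Hspa5: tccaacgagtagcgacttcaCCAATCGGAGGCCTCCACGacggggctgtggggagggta

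PD-1 blockade was compared with its isotype control in mice without and with doxorubicin. Between anti-PD-1 and IgG1 tumors, limma called 0 of 34 members and 0% of 13692 genes. The members' median log2 fold change was 0.04, ranging from -0.0014 without IgG1 replicate 1 to 0.139 without anti-PD-1 replicate 1. The median over all genes was -0.03, and 14 of 34 members were lower (52.8% of all genes). Sec61g alone had an unadjusted p below 0.05 with higher values (1 of 34, 2.94%), where 1.75% of all genes did. Under doxorubicin, 0 of 34 members and 0% of 13946 genes passed both limits. The members' median was 0.15, or 0.01 without DOX/anti-PD-1 replicate 2 and 0.36 without DOX/anti-PD-1 replicate 3. The median over all genes was -0.04, and 11 of 34 members were lower (53.7% of all genes). Sec61b was the 1 member higher at an unadjusted p below 0.05, where 1.81% of all genes were higher. Over both chemotherapy arms, 0 members and 0% of 14735 genes passed both limits. The members' median was 0.09, against -0.03 over all genes, and 8 of 34 members were lower (54.4% of all genes). Dad1 and Sec61b (5.88%) were higher at an unadjusted p below 0.05, where 1.78% of all genes were. The log2 fold change of Dad1 was 0.52 (standard error 0.17, adjusted p = 0.889 with limma).

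Whether doxorubicin acted differently with and without PD-1 blockade was tested as an interaction in all 12 tumors. With limma, 0 members and 1 of 14735 genes (0.00679%) passed both limits. Sec61g was the 1 member with a lower interaction at an unadjusted p below 0.05 (2.45% of all genes), at a log2 difference of -1.72 (standard error 0.61, adjusted p = 0.993). P4hb was the 1 member with a higher one (2.26% of all genes), at 0.96 (standard error 0.43, adjusted p = 0.993). The counts of 14 members without and 5 with PD-1 blockade at an unadjusted p below 0.05 were not tested against each other.

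Ratios between partners that share a role were taken from log2(TPM + 1), so the scaling of a library reaches them only through the added 1. The log2 ratio of Sec11c to Sec11a was -0.21, -0.54 and -0.24 in IgG1, -1.07, -0.23 and -0.18 in anti-PD-1, -1.52, -0.40 and -0.61 in DOX/IgG1 and -0.95, -0.46 and -1.22 in DOX/anti-PD-1 tumors. It averaged -0.86 ± 0.45 (SD, n = 6) with and -0.41 ± 0.35 without doxorubicin, with overlap (exact permutation test, two-sided, p = 0.0801, adjusted over 4 ratios p = 0.286). Leaving out 1 tumor at a time, the difference ran from -0.32 without DOX/IgG1 replicate 1 (exact permutation p = 0.162) to -0.58 without anti-PD-1 replicate 1 (p = 0.0173, the only 1 of the 12 below 0.05). The log2 ratio of Tusc3 to Magt1, which take the same place in Stt3b complexes, averaged -0.85 ± 0.41 with and -1.29 ± 0.52 without doxorubicin (n = 6, exact permutation p = 0.143, adjusted p = 0.286). The difference of 0.45 was 0.73 between the IgG1 groups alone (n = 3, exact permutation p = 0.2) and 0.17 between the anti-PD-1 groups alone (p = 0.8), where 0.1 is the smallest p possible. Magt1 itself had 75.9, 135 and 145 TPM in IgG1, 154, 112 and 81.0 in anti-PD-1, 80.8, 68.7 and 72.2 in DOX/IgG1 and 105, 107 and 70.1 in DOX/anti-PD-1 tumors. The ratios of Stt3a to Stt3b and of Calr to Canx differed by 0.03 and 0.10 between the arms (n = 6, exact permutation p = 0.823 and 0.727). With 6 tumors against 6, the smallest p this test can give is 0.00216.

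Other genes of the pathway were described from lists set beside the members. Over both antibodies 36.7% of all genes were lower, and 3.16% were lower and 8.82% higher at an unadjusted p below 0.05. Of 4 other oligosaccharyltransferase subunits, 4 were lower over both antibodies, with a median log2 fold change of -0.61 and 2 at an unadjusted p below 0.05, Ostc and Magt1. Ostc, which joins Stt3a to the channel, had 149, 153 and 135 TPM in IgG1, 111, 263 and 198 in anti-PD-1, 71.1, 84.6 and 68.8 in DOX/IgG1 and 142, 203 and 47.7 in DOX/anti-PD-1 tumors. In DOX/IgG1 it lay below all IgG1 tumors. Of 28 other targeting and insertion factors, such as the EMC and GET proteins, 12 were lower and 16 higher (median 0.04), with 2 and 1 at an unadjusted p below 0.05. Tmco1, part of a translocon for multipass proteins, had 187, 218 and 238 TPM in IgG1, 191, 223 and 208 in anti-PD-1, 135, 159 and 154 in DOX/IgG1 and 143, 199 and 108 in DOX/anti-PD-1 tumors. Srp54a, the signal-binding SRP protein, ranged from 0 in 3 tumors to 148 TPM, and its reads can be split with near-identical copies, so its values are uncertain. In dolichol oligosaccharide synthesis, 13 of 27 genes were lower and 14 higher (median 0.03), with 1 in each direction at an unadjusted p below 0.05. These were Alg5, which was lower (log2 fold change -0.52), and Mpi, which supplies mannose phosphate and was higher at 0.91 (standard error 0.24, adjusted p = 0.206 with limma).

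In glycan trimming and quality control, 11 of 16 genes were lower over both antibodies (median -0.16), against 36.7% of all genes. At an unadjusted p below 0.05, 4 were lower and 1 higher, where 3.16% of all genes were lower and 8.82% higher. Edem3, which trims mannose from misfolded glycoproteins, had 83.5, 82.1 and 94.2 TPM in IgG1, 86.0, 83.1 and 76.9 in anti-PD-1, 55.3, 52.2 and 48.3 in DOX/IgG1 and 63.8, 64.9 and 45.6 in DOX/anti-PD-1 tumors. All 6 tumors with doxorubicin were below all 6 without it, and the log2 fold change was -0.62 (standard error 0.14, adjusted p = 0.186 with limma). Derl2, which retrieves misfolded proteins from the ER, had a log2 fold change of -0.68 (adjusted p = 0.241). Of 21 genes of Golgi N-glycan processing, 12 were lower and 9 higher, with 4 (against 3.16% of all genes) and 5 (against 8.82%) at an unadjusted p below 0.05. St3gal4, a sialyltransferase, was the 1 gene of these lists past both limits. It had 18.9, 22.4 and 22.6 TPM in IgG1, 11.4, 15.5 and 15.8 in anti-PD-1, 40.4, 82.0 and 80.6 in DOX/IgG1 and 39.2, 28.7 and 54.3 in DOX/anti-PD-1 tumors, and it rose with doxorubicin (log2 fold change 1.49, adjusted p = 0.0642 with limma, standard error 0.22).

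Of 18 unfolded protein response genes, 17 were lower in DOX/IgG1 than in IgG1 tumors (median -0.57) and 10 were lower with doxorubicin under PD-1 blockade (median -0.10), against 39.4% and 40% of all genes. At an unadjusted p below 0.05, 8 and 2 were lower, against 2.7% and 2.33% of all genes, and 0 passed both limits. Xbp1, a transcription factor that raises secretory capacity, had 780, 1019 and 860 TPM in IgG1, 968, 1004 and 815 in anti-PD-1, 303, 368 and 297 in DOX/IgG1 and 593, 718 and 544 in DOX/anti-PD-1 tumors. All 6 tumors with doxorubicin were below all 6 without it, the log2 fold change over both antibodies being -1.02 (standard error 0.19, adjusted p = 0.108 with limma). Dnajb9, an ER co-chaperone, had 126, 97.1 and 122 TPM in IgG1, 135, 149 and 169 in anti-PD-1, 103, 72.3 and 67.8 in DOX/IgG1 and 85.2, 92.8 and 42.7 in DOX/anti-PD-1 tumors. Its log2 fold change was -0.81 (standard error 0.21, adjusted p = 0.206), and only DOX/IgG1 replicate 1 overlapped the tumors without doxorubicin.

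Marker genes of cell types were summed in each tumor. The 5 milk protein genes, all found, summed to 7449, 4765 and 8453 TPM in IgG1, 6473, 10359 and 7393 in anti-PD-1, 909, 3216 and 2497 in DOX/IgG1 and 6037, 8366 and 2880 in DOX/anti-PD-1 tumors, with Csn3 the most abundant. The 3 DOX/IgG1 tumors and DOX/anti-PD-1 replicate 3, which had low member sums, also had the 4 lowest milk protein sums. The 5 luminal epithelial genes, led by Epcam, summed to 3501, 2389 and 2965 TPM in IgG1, 2731, 2036 and 2244 in anti-PD-1, 1914, 3084 and 3619 in DOX/IgG1 and 2905, 2548 and 2134 in DOX/anti-PD-1 tumors, which overlapped. Epcam itself had 938, 846 and 954 TPM in IgG1, 911, 712 and 757 in anti-PD-1, 565, 522 and 418 in DOX/IgG1 and 734, 920 and 468 in DOX/anti-PD-1 tumors, so that all DOX/IgG1 tumors were below all IgG1 tumors. Krt19 had 847, 347 and 601 TPM in IgG1 and 302, 1261 and 1801 TPM in DOX/IgG1 tumors, with the highest values of the list in replicates 2 and 3. Over both antibodies 4 of 5 luminal genes were lower (36.7% of all genes). At an unadjusted p below 0.05 with limma, Epcam was lower (log2 fold change -0.54) and Krt19 higher (0.82). Of all genes, 3.16% were lower and 8.82% higher at that p. The 5 salivary-type secretory genes, led by Amy1, summed to 60.1, 78.3 and 124 TPM in DOX/IgG1 tumors and to at most 21.8 TPM in the other 9 tumors. Bpifa2 and Smr3a of this list were 2 of the 5 genes past both limits in DOX/IgG1 versus IgG1 (log2 fold changes 4.73 and 3.87, adjusted p = 0.0334 for each with limma), and Bpifa2 was listed at 0 in all tumors outside DOX/IgG1.

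The 6 fibroblast genes, led by Col1a1, summed to 1184, 1139 and 1791 TPM in IgG1, 918, 840 and 676 in anti-PD-1, 522, 1807 and 1280 in DOX/IgG1 and 1049, 1395 and 1568 in DOX/anti-PD-1 tumors. The 6 adipocyte genes, led by Adipoq, summed to 36.1, 187 and 120, to 51.0, 44.1 and 81.2, to 94.2, 448 and 65.8, and to 509, 120 and 122 TPM in the same order, and the 5 skeletal muscle genes, led by Acta1, to 0 to 669 TPM. Fibroblast and adipocyte sums of all DOX/anti-PD-1 tumors were above those of all anti-PD-1 tumors, whereas the muscle sums overlapped. Macrophage genes (5, led by C1qa) summed to 157 to 296 TPM, T and NK cell genes (6, led by Cd3e) to 1.03 to 40.0 TPM and endothelial genes (3, led by Pecam1) to 38.5 to 100.5 TPM over the 12 tumors. Of the plasma and B cell genes, 5 of 7 were found and summed to at most 14.7 TPM, with Tnfrsf17, which marks plasma cells, at 0 in every tumor. The part of the milk protein, epithelial, fibroblast, adipocyte and salivary-type genes in the lower values of the members was not tested.

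**Figure D5:**
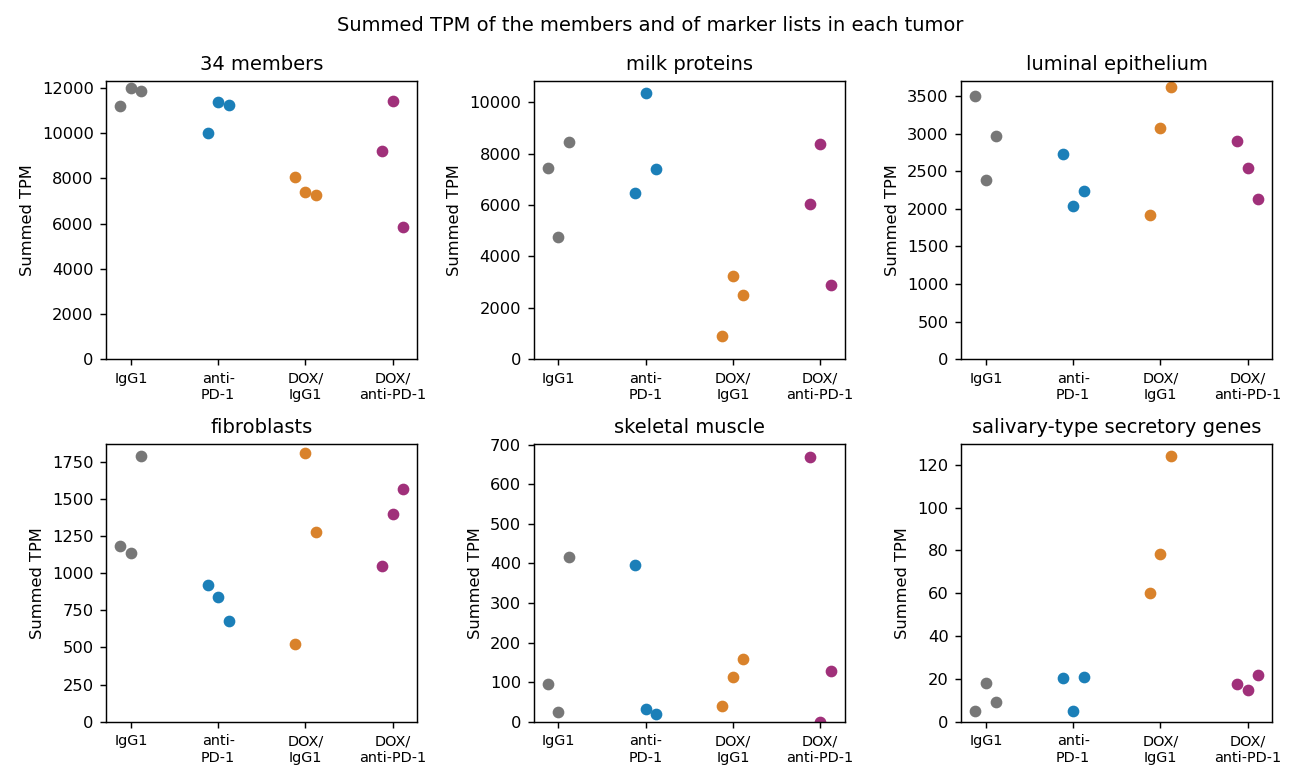
Summed TPM of the 34 members and of 5 marker lists in each tumor (points), by group. The 3 DOX/IgG1 tumors had member sums of 7252 to 8067 TPM and milk protein sums of 909 to 3216 TPM, below all IgG1 tumors in both, and their luminal epithelium sums, which include Krt19 at 302 to 1801 TPM, overlapped with those of IgG1 tumors.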

How the data were processed

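Total RNA from 12 whole tumors was sequenced with a stranded kit. According to the submitters' processing notes, reads were aligned to mm10 by STAR and gene levels came from RSEM. For each tumor the authors deposited log2(TPM + 1) of 21960 genes, with decimal commas, and these values were turned back to TPM. The column headers of the 3 DOX/anti-PD-1 tumors end differently from the others and that of DOX/IgG1 replicate 1 holds the word test. What this means is not given in the sources used here.

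As planned, limma 3.58.1 (R 4.3.3; lmFit, eBayes with trend) was fitted to log2(TPM + 1) over all genes at 1 TPM or more in at least 3 tumors of the fit, with two-sided p-values adjusted by Benjamini-Hochberg over all genes tested. Pairwise fits used 6 tumors, and the effects over both arms and the interaction used all 12. A call needed an adjusted p < 0.1 and a log2 fold change beyond 1 in either direction. Ratios were compared with exact permutation tests in Python 3.11.15. The code was tested on simulated data. Alternatives were another pseudocount, other minimums, median-of-ratios scaling, no trend, other limits, a replicate block, all tumors in one fit and each tumor left out.

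Members and lists were chosen with earlier results of these data known. Values in every tumor were given for up to 4 members per comparison with the smallest unadjusted p, the highest and lowest member of each complex, the genes of the ratios and the members with the largest and smallest spread. Genes of other pathway lists were named when past both limits, otherwise the 2 with the smallest unadjusted p in the doxorubicin effect. Igkc, Ighm and Srp54c were not found by symbol, and the identifier listed for Srp54b is the one GENCODE gives to Srp54c. Coordinates came from GENCODE vM21.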

Additional observations from a re-analysis of the deposited data

How the results depend on the processing

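In all 7 comparisons 0 members passed both limits under every setting. Counts at an unadjusted p, and settings joined to no fold limit, were chosen after seeing the data.

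The median log2 fold change of the members ranged, leaving out 1 tumor at a time, from -0.51 to -0.43 in DOX/IgG1 versus IgG1, from -0.49 to -0.17 in DOX/anti-PD-1 versus anti-PD-1, from -0.0014 to 0.139 in anti-PD-1 versus IgG1, from 0.0132 to 0.363 in DOX/anti-PD-1 versus DOX/IgG1, from 0.0159 to 0.17 for anti-PD-1 over both arms, from -0.45 to -0.32 for doxorubicin over both antibodies and from 0.016 to 0.353 for the interaction, the highest without DOX/anti-PD-1 replicate 3. With median-of-ratios scaling it was -0.59 in DOX/IgG1 versus IgG1.

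Members lower at an unadjusted p below 0.05 ranged from 6 (without IgG1 replicate 2) to 17 (without IgG1 replicate 1) in DOX/IgG1 versus IgG1, and were 18 with scaling (4.25% of all genes), 7 without the trend (2.56%) and 9 with all 12 tumors in one fit (2.8%). The shares of all genes at the ends of that range were 1.66% and 3.27%. In DOX/anti-PD-1 versus anti-PD-1 they ranged from 2 (1.38% to 1.99% of all genes) to 9 (4.04%), and were 10 with scaling (4.19%), 3 without the trend (2.12%) and 8 with all 12 tumors (2.19%). For doxorubicin over both antibodies they ranged from 7 (2.39%) to 21 (4.21%) and were 23 with scaling (6.11%). There, members at an adjusted p below 0.1 with no fold limit ranged from 0 to 3 and were 2 with scaling. The shares of all genes called in those fits are not given here, so this range cannot be set against them. The cause of the ranges was not tested.

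Leaving out 1 tumor at a time, the difference in log2 ratio ranged from -0.58 to -0.32 for Sec11c to Sec11a, from 0.30 to 0.55 for Tusc3 to Magt1, from -0.0387 to 0.0949 for Stt3a to Stt3b and from -0.0697 to 0.239 for Calr to Canx. Tusc3 to Magt1 was 0.726 between the IgG1 groups alone and 0.168 between the anti-PD-1 groups alone, and Calr to Canx was 0.273 between the anti-PD-1 groups alone. The difference was negative for Stt3a to Stt3b without IgG1 replicate 2 (-0.03), anti-PD-1 replicate 3 (-0.0387) or DOX/IgG1 replicate 3 (-0.03). For Calr to Canx it was negative without anti-PD-1 replicate 1 (-0.0697) or DOX/anti-PD-1 replicate 2 (-0.04) and between the IgG1 groups alone (-0.0654).

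Deviations from the group mean were correlated between tumors of different groups. In 18 pairs with the same replicate number the correlation ran from -0.096 to 0.134 (median 0.017, 4 pairs above 0.1). In 36 pairs with different numbers it ran from -0.190 to 0.113 (median -0.004, 3 pairs above 0.1). With so few tumors per group, these values cannot decide whether the replicate numbers pair tumors. With the replicate number as a block, 11, 6 and 13 members were lower at an unadjusted p below 0.05 in DOX/IgG1 versus IgG1, DOX/anti-PD-1 versus anti-PD-1 and over both antibodies (3.16%, 2.53% and 3.37% of all genes), and 0 passed both limits.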
